A study of Mus musculus with 2 samples.

Results

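Tcap (ENSMUSG00000007877) encodes telethonin, or titin-cap, and is described here in the smooth muscle cells of the mouse aorta. It is 1 of 32285 genes in the count tables and was taken by its symbol. The cells it is described in are 2588 smooth muscle-like (SMC-like) cells among 6089 cells kept from the MGP knock-in library and 296 among 3588 cells kept from the wild-type library. Tcap was chosen by its level in SMC-like cells of these libraries, which differed widely, so the ratio between them is given as a description only. Its place among cell types, its spread over cells and its relation to clock transcripts are likewise described without a test.

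The first group is a pool of aortic cells from knock-in mice carrying an altered matrix Gla protein (MGP) and the second is a pool from wild-type mice. Both groups were 1 month old and held males and females. Aortas were perfused, stripped of adventitia, digested with Liberase, and sorted for live cells by exclusion of DAPI before 10x Genomics library construction. The labels give both libraries the same batch. The sources used here do not give the altered residue, how many mice went into each pool, or the hour at which tissue was taken. With 1 library per genotype there is no replicate check and no test between genotypes, and genotype, mice, collection and library cannot be told apart. All intervals below are at 95% and cover counting error only.

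In striated muscle, telethonin sits at the Z-disc, the plate that anchors the thin filaments at each end of the sarcomere, where it joins the ends of neighbouring titin molecules. Smooth muscle has no sarcomeres and anchors its thin filaments in dense bodies instead. In mouse heart and skeletal muscle Tcap is also known as a transcript under circadian control. In the circadian clock, CLOCK or its relative NPAS2 pairs with BMAL1 (encoded by Arntl) and activates the Per and Cry genes, Nr1d1, Nr1d2 and Dbp. PER and CRY proteins block that pair, and the NR1D receptors repress Arntl. DBP, TEF and HLF bind D-box elements and activate a further layer of genes, with NFIL3 competing at the same elements.

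The libraries held 85831737 UMIs (unique molecular identifiers, 1 per captured RNA molecule) in the knock-in and 79626104 in the wild-type. The SMC-like cells carried 34014156 knock-in UMIs and 5638294 wild-type UMIs, with a median of 12207 per knock-in cell and 17524 per wild-type cell. The median share of mitochondrially encoded UMIs in them was 4.64% in the knock-in and 3.30% in the wild-type. All 8 smooth muscle markers were detected in SMC-like cells, and their summed level was 39276 CPM (UMIs of a gene per 1000000 UMIs of the same cells) in the knock-in and 41324 CPM in the wild-type, against 752 and 426 CPM in fibroblast-like cells of the same libraries. The libraries shared 4 cell barcodes, which held 20 of the 20269 Tcap UMIs of the knock-in library and 0 of the 328 of the wild-type library.

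Tcap was a transcript of smooth muscle in both libraries, at levels far apart. In SMC-like cells it had 15891 UMIs in the knock-in, or 467 CPM (460 to 474), against 169 UMIs in the wild-type, or 29.97 CPM (25.6 to 34.9). The knock-in level was 15.6-fold higher, a log2 ratio of 3.96 (3.74 to 4.19). A Tcap UMI was seen in 1997 of 2588 knock-in cells (77.2%, exact binomial interval 75.5 to 78.8%) and in 71 of 296 wild-type cells (24.0%, 19.2 to 29.3%). Within a library the contrast between cell types was of similar size in both. Tcap in SMC-like over fibroblast-like cells had a log2 ratio of 5.70 (5.54 to 5.88) in the knock-in and 6.09 (5.48 to 6.76) in the wild-type, and these intervals overlap. RNA from broken cells, estimated as described below, was expected to give 144 of the 292 knock-in and 17.2 of the 25 wild-type fibroblast-like UMIs. The contrast without that RNA is not given here.

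**Figure D1:**
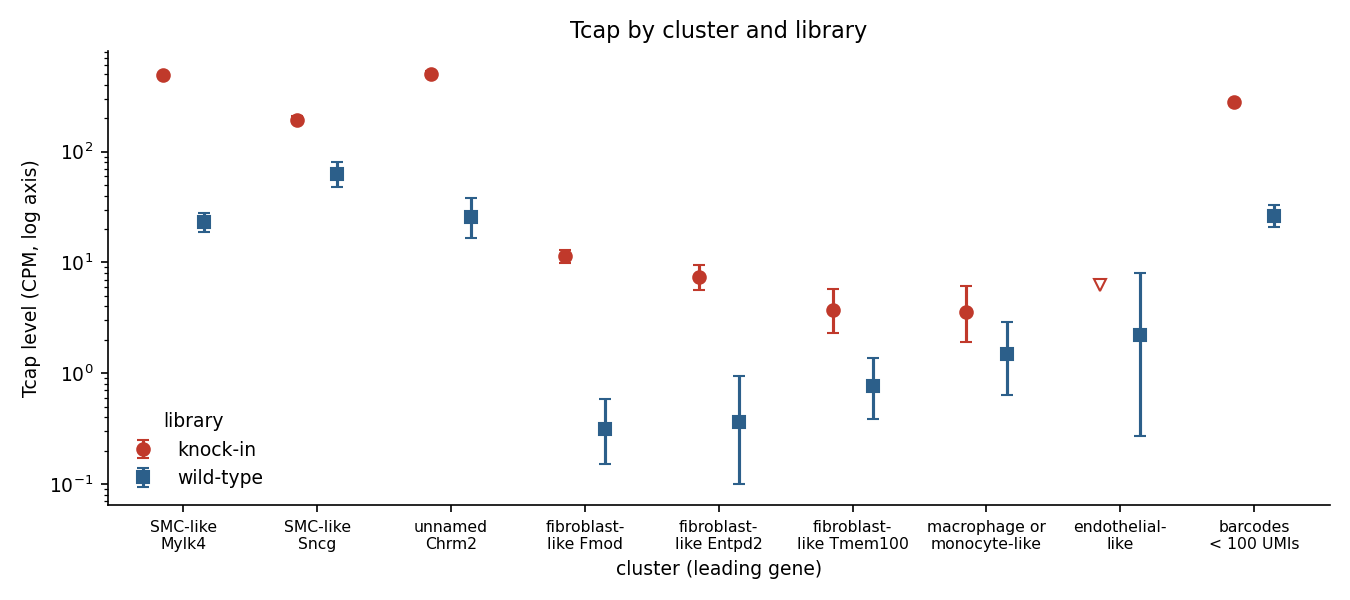
Level of Tcap in CPM on a log axis for each cluster with at least 40 cells in both libraries, and for barcodes under 100 UMIs, in the knock-in library (circles) and the wild-type library (squares). Bars are exact Poisson intervals at 95% and the open triangle marks the floor of 3 counts where no UMI was seen; the largest SMC-like cluster stands at 495 CPM in the knock-in and 23.0 CPM in the wild-type, and the fibroblast-like clusters stand at 11.3 CPM or less in both.

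The SMC-like cells fell into a large cluster, led by Mylk4, Npnt and Sost, and a small one, led by Sncg and Timp4. In the Mylk4 cluster Tcap stood at 495 CPM in 2343 knock-in cells and at 23.0 CPM in 246 wild-type cells, a log2 ratio of 4.43 (4.15 to 4.71). In the Sncg cluster it stood at 195 CPM (180 to 211) in 245 knock-in cells and at 62.5 CPM (47.9 to 80.1) in 50 wild-type cells, a log2 ratio of 1.64 (1.26 to 2.04). As summed, the order of the clusters was opposite in the libraries. The log2 ratio of the Mylk4 over the Sncg cluster was 1.35 (1.23 to 1.46) in the knock-in and -1.44 (-1.90 to -0.96) in the wild-type. The wild-type gap rested mainly on 1 cell, described next, so an opposite order is not established.

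The wild-type value of the Sncg cluster rested on 1 cell. That cell held 36 of the 62 Tcap UMIs of its cluster, while the next wild-type cell held 10 and no wild-type cell of the Mylk4 cluster held more than 5. It was a female cell of 18874 UMIs with 588 UMIs of Acta2 and 66 of Myh11, both smooth muscle contractile genes, and it had 0 UMIs of the striated muscle genes Myh6, Tnnt2, Tnni3, Ttn, Nppa, Acta1 and Ckm. Without it the wild-type level was 26.7 CPM in the Sncg cluster, within the interval of the Mylk4 cluster (23.0 CPM, 18.9 to 27.8). The Sncg cluster's log2 ratio of knock-in over wild-type was then 2.87 (2.30 to 3.49), and that of all SMC-like cells was 4.30 (4.06 to 4.56). The lower level of the Sncg cluster in the knock-in did not rest on single cells: 54.3% of its cells had no Tcap UMI, against 19.5% in the Mylk4 cluster.

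A further cluster of 189 knock-in and 57 wild-type cells, led by Mdga2, Chrm3 and Chrm2, scored for both smooth muscle and fibroblast markers and was left unnamed. Its Tcap level, 499 CPM in the knock-in and 25.8 CPM in the wild-type, was within counting error of that of the Mylk4 cluster in each library. The transcript was unevenly placed inside it. In the knock-in, 73 of its cells had at least 3 Tcap UMIs and together held 1067 of its 1100. Those 73 cells had 2406 CPM of Myh11 and 19.8 CPM of Chrm2, the muscarinic receptor gene that helped to define the cluster. The 90 cells with no Tcap UMI had 378 CPM of Myh11 and 158 CPM of Chrm2, and the fibroblast gene Dcn stood at 1301 CPM in the cells with at least 3 Tcap UMIs and 12348 CPM in those with none. Tcap thus followed Myh11 and not Chrm2 among these cells. All 57 wild-type cells of the cluster but 1 were called male, and the other fell in the class of neither or both. Of the knock-in cells, 77 were called female and 83 male, with 512 and 486 CPM of Tcap.

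Outside these clusters Tcap was low. In fibroblast-like cells it had 292 UMIs in the knock-in (8.97 CPM) and 25 in the wild-type (0.440 CPM). In macrophage or monocyte-like cells it had 13 UMIs in the knock-in (3.60 CPM, 1.92 to 6.16) and 8 in the wild-type (1.48 CPM, 0.640 to 2.92). In endothelial-like cells it had 0 UMIs in 46 knock-in cells, where 3 counts would be 6.24 CPM, and 2 UMIs in 64 wild-type cells. In the knock-in the order ran from the Chrm2 and Mylk4 clusters, which did not differ, through the Sncg cluster to the fibroblast-like clusters led by Pex5l and Fmod (11.3 CPM), by Gpnmb and Entpd2 (7.33 CPM) and by Nav3 and Tmem100 (3.74 CPM). By summed level the last of these was below its fibroblast-like neighbour (log2 ratio of the Gpnmb over the Nav3 cluster 0.97, 0.24 to 1.76). Its interval overlapped that of the macrophage or monocyte-like cells. RNA from broken cells was expected to give 36.4 of the 63 UMIs in the Gpnmb cluster and 18.3 of the 21 in the Nav3 cluster. Single cells held 13 and 10 of them. The shares of cells with a UMI were 2.62% and 2.96%, at median depths of 5204 and 19522 UMIs, so the order is uncertain. In the wild-type the 3 fibroblast-like clusters stood between 0.317 and 0.772 CPM, with overlapping intervals.

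Free RNA, which enters droplets from broken cells, bears on these low values. Barcodes with fewer than 100 UMIs held 1378 Tcap UMIs in the knock-in (278 CPM, 264 to 293) and 82 in the wild-type (26.3 CPM, 20.9 to 32.7), no more than 2 in any barcode. At an equal depth of 5000 UMIs per cell, 42 of 2255 knock-in fibroblast-like cells had a Tcap UMI (1.86%, 1.35 to 2.51%), and so did 6 of 284 knock-in macrophage or monocyte-like cells (2.11%, 0.779 to 4.54%), a cell type that should lack the transcript. Before thinning the shares were 3.05% and 4.45%, at median depths of 10856 and 11408.5 UMIs. The fibroblast-like share at equal depth thus lay within the interval of the macrophage or monocyte-like share, which is wide because it rests on 6 cells. By summed level, knock-in fibroblast-like cells stood above macrophage or monocyte-like cells, at a log2 ratio of 1.32 (0.52 to 2.24). Whether the fibroblast-like share is background was not tested. In SMC-like cells the share at that depth was 63.2%, and free RNA scaled by genes of other cell types gave an expected 81.4 of 15891 Tcap UMIs in the knock-in and 1.16 of 169 in the wild-type.

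The Tcap UMIs of fibroblast-like cells were concentrated in few cells. In the knock-in, 20 of 2914 cells had at least 3 and held 214 of the 292 UMIs, and free RNA scaled in the same way gave 144 for the whole class. These 20 cells had 352 CPM of Myh11 and 2397 CPM of Acta2, against 24.3 and 251 CPM in the 2825 cells with none, and 168 CPM of the fibroblast gene Pdgfra against 248 CPM. No wild-type fibroblast-like cell held more than 2. The knock-in cells that carried Tcap in this class thus also carried more smooth muscle transcripts. This was not seen in the wild-type. There the 23 cells with a Tcap UMI had 1.83 CPM of Myh11 and 167 CPM of Acta2, against 3.63 and 168 CPM in the 2672 without. The part of doublets in the knock-in values was not tested.

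Tcap and Myh11 were not in a constant ratio. There were 0.108 Tcap UMIs per Myh11 UMI in knock-in SMC-like cells and 0.00930 in wild-type ones. The ratio was 0.348 and 0.0336 in the Chrm2 cluster of the knock-in and wild-type, and 0.151 and 0.0745 in their barcodes under 100 UMIs. Free RNA thus carried more Tcap per Myh11 than SMC-like cells did in both libraries.

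Among SMC-like cells of the knock-in, Tcap covered a wide range. The median cell held 3 UMIs, the 25th percentile was 1 and the 90th percentile 16, with a maximum of 76. No Tcap UMI was seen in 591 knock-in cells (22.8%), while 577 (22.3%) had at least 10 and 171 (6.61%) at least 20. In the wild-type the median was 0 and the 90th percentile 2, 225 cells (76.0%) had none, and 2 cells had at least 10. The 259 knock-in cells with the most Tcap held 41.7% of that library's SMC-like Tcap UMIs, and the 30 wild-type cells with the most held 72.8%.

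At an equal depth of 5000 UMIs per cell, which left out 29 knock-in and 5 wild-type cells, the shapes could be compared. A Tcap UMI was then seen in 1617 of 2559 knock-in cells (63.2%, 61.3 to 65.1%) and in 32 of 291 wild-type cells (11%, 7.64 to 15.2%). The mean was 2.47 UMIs per cell in the knock-in (SD over cells 3.48) and 0.165 in the wild-type (SD 0.670). Knock-in cells fell off gradually, with 470 at 1 UMI, 311 at 2, 203 at 3 and 472 at 5 or more. In the wild-type 24 cells had 1 UMI, 6 had 2 and 1 had 5 or more.

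**Figure D2:**
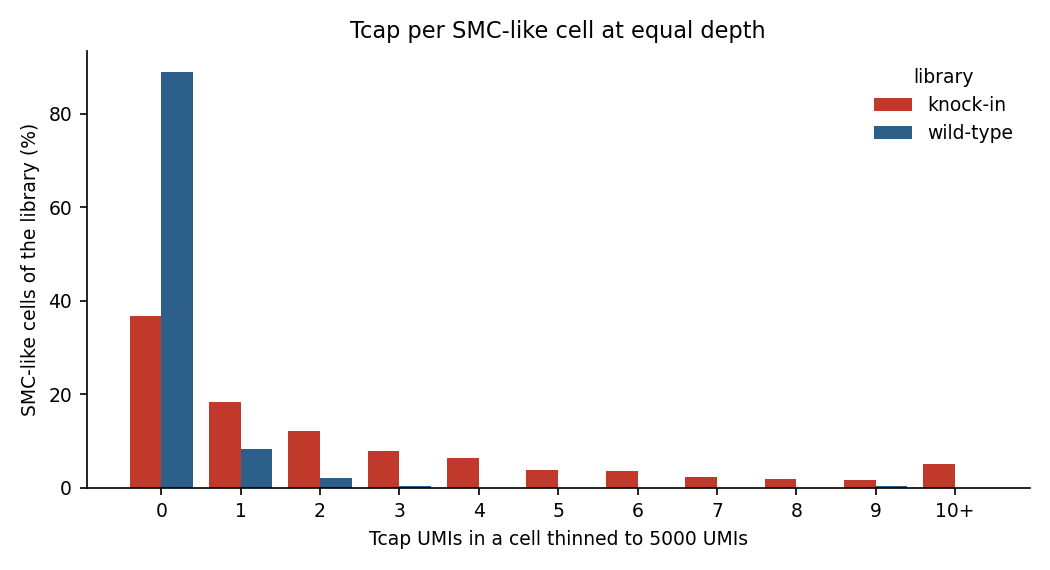
Share of SMC-like cells of each library, in percent, by the number of Tcap UMIs in the cell after thinning to 5000 UMIs per cell, with 2559 knock-in cells (left bars) and 291 wild-type cells (right bars). No Tcap UMI was left in 36.8% of knock-in cells and 89.0% of wild-type cells, and the knock-in bars fall off gradually to a tail of 10 or more UMIs.

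Tcap was more uneven from cell to cell than 2 smooth muscle genes of nearly the same mean. In the thinned knock-in cells its coefficient of variation was 1.41 at a mean of 2.47 UMIs. Myocd, which encodes the master coactivator of the smooth muscle programme, had 1.02 at a mean of 2.54 UMIs, and Smtn, which encodes the actin-binding protein smoothelin, had 0.659 at a mean of 2.76 UMIs. The variance over the mean, which is 1 for counting error alone, was 4.91 for Tcap, 2.64 for Myocd and 1.20 for Smtn. Actg2, the enteric smooth muscle actin gene, had a coefficient of variation like that of Tcap (1.44) at a lower mean of 1.48 UMIs. The unevenness of Tcap was hence well beyond counting error, while that of Smtn was close to it.

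Cells were called female or male from Xist and Y-linked transcripts. In the knock-in, Tcap stood at 453 CPM in 1517 female and 490 CPM in 765 male SMC-like cells, a log2 ratio of female over male of -0.11 (-0.16 to -0.06). In the wild-type it stood at 42.7 CPM in 115 female and 22.9 CPM in 152 male cells, a log2 ratio of 0.90 (0.43 to 1.37). The female wild-type value includes the cell of 36 UMIs, and within the Mylk4 cluster the wild-type log2 ratio was 0.38 (-0.21 to 0.97). The knock-in over wild-type log2 ratio was 3.41 (3.11 to 3.72) in female cells and 4.42 (4.08 to 4.78) in male cells, so it was large within each sex. Posterior Hox genes (groups 9 and above) mark the more distal aorta. Where SMC-like cells held such a UMI, Tcap stood at 337 CPM in 126 knock-in cells and 24.8 CPM in 36 wild-type cells.

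Few of the genes tested differed as much. Tcap was chosen for its difference between the libraries, so its rank is a description only. SMC-like cells were compared over 6233 genes that had at least 50 UMIs in both libraries together and at least 20 CPM in 1 or both. Of these, 2.02% were at least 2-fold apart, 1.09% being higher and 0.931% lower in the knock-in, with a median log2 ratio of -0.049. By this ratio Tcap ranked 2nd, after Dbp, with 8091 UMIs in the knock-in (238 CPM) and 63 in the wild-type (11.2 CPM), a log2 ratio of 4.41 (4.06 to 4.79). The next were Hlf at 2.88, the histone gene Hist2h2aa1 at 2.83 (a gene with near-identical copies, so its counts are uncertain), and Per3 at 2.71. Dbp, Hlf, Hist2h2aa1 and Per3 reached 20 CPM in the knock-in only, so the order holds genes that passed the minimum through the library where they were high. The rank also depends on the minimum. With at least 10 UMIs and no CPM minimum, Tcap ranked 345 among 15385 genes.

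**Figure D3:**
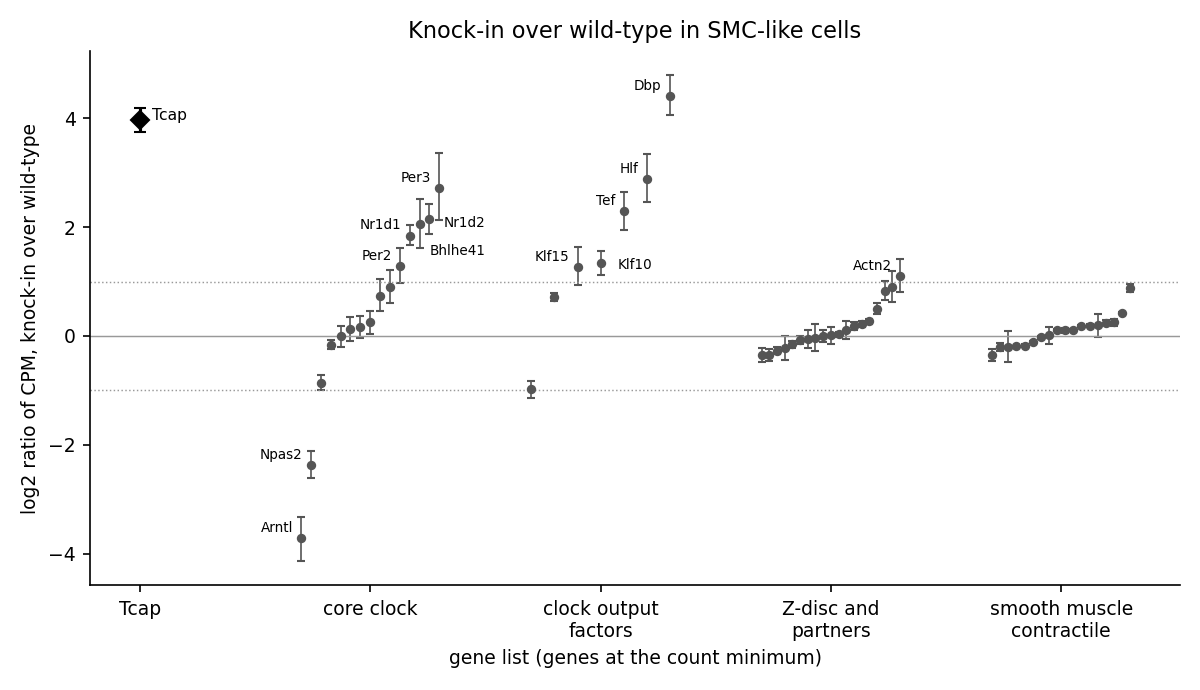
The log2 ratio of CPM of knock-in over wild-type in SMC-like cells for Tcap (diamond) and for the tested members of 4 gene lists (points), with exact conditional binomial intervals at 95%, and dotted lines at 2-fold. Tcap lies at 3.96, Dbp at 4.41 and Arntl at -3.72, while 18 of 19 tested Z-disc genes and all 18 contractile genes lie within 2-fold.

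Of 41 genes of the Z-disc and of titin-cap's partners, 19 were tested; 1 was at least 2-fold higher in the knock-in, where 1.09% of all genes tested were, and 0 were lower. The list's median log2 ratio was 0.012. The gene that was higher was Actn2, encoding the sarcomeric alpha-actinin, with 37.5 CPM in the knock-in and 17.6 CPM in the wild-type (log2 ratio 1.10, 0.80 to 1.41). Actn2 reached 20 CPM in the knock-in alone, so it passed the minimum through the library where it was high. At a minimum of 10 UMIs and no CPM minimum, 28 of the 41 were measured. Of these, 4 were higher (all genes 7.47%), namely Actn2, Nebl, Nrap and Kcne1, and 2 were lower (all genes 4.93%), namely Ttn and Fhl2. Fhl2, encoding a LIM protein of muscle, stood at 9.82 CPM in the knock-in and 19.9 CPM in the wild-type (log2 ratio -1.02, -1.33 to -0.69). Of the more abundant members, Myom1 (myomesin, of the M-band) stood at 419 CPM in the knock-in and 505 CPM in the wild-type, Ldb3 (a Z-disc PDZ and LIM protein) at 111 and 141 CPM, and Myoz2 (calsarcin, a calcineurin-binding Z-disc protein) at 60.5 and 63.3 CPM.

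Telethonin's binding partners were scarce or within 2-fold. Titin itself, Ttn, had 27 UMIs in the knock-in and 34 in the wild-type, 0.794 and 6.03 CPM, so the transcript of the protein that telethonin caps was scarce in the cells that held most Tcap. Csrp3, encoding the muscle LIM protein of the same complex, had 0 knock-in UMIs and 1 wild-type UMI, and Mstn (myostatin, a muscle growth inhibitor) and Trim63 (the ubiquitin ligase MuRF1) had 0 in both. Kcne1, the potassium channel subunit minK, had 13 knock-in UMIs and 1 wild-type UMI. Mdm2, the ubiquitin ligase that targets p53, stood at 32.8 CPM in the knock-in and 38.3 CPM in the wild-type, and Siva1, a pro-apoptotic factor, at 81.9 and 105 CPM. In all, 13 of the 41 list members had fewer than 10 UMIs over both libraries, 6 of them 0.

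The filament genes of striated muscle showed no common direction. Of 27 genes of the striated thin and thick filaments, 15 had at least 10 UMIs over both libraries in SMC-like cells. At that count minimum 3 were at least 2-fold higher in the knock-in and 1 was lower, where 12.4% of all 15385 genes at that minimum were 2-fold apart, 7.47% higher and 4.93% lower. Tnnt2, the cardiac troponin T gene, had 122 UMIs in the knock-in (3.59 CPM) and 65 in the wild-type (11.5 CPM). Tnni1, the slow troponin I gene, had 30 knock-in UMIs and 0 wild-type UMIs. Tnnc1, the slow and cardiac troponin C gene, had 38 knock-in UMIs and 2 wild-type UMIs, a log2 ratio of 1.65 (-0.30 to 4.75). At the same minimum Nrap, which encodes a protein of striated muscle attachment sites, had 285 knock-in and 13 wild-type UMIs, a log2 ratio of 1.86 (1.06 to 2.79), and Nebl, encoding the cardiac Z-disc protein nebulette, had 445 and 32, a log2 ratio of 1.21 (0.69 to 1.77).

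Smooth muscle contractile genes were within 2-fold. All 18 were tested and 0 were 2-fold apart, where 2.02% of all genes tested were; their median log2 ratio was 0.10. Acta2 stood at 19052 CPM in the knock-in and 21792 CPM in the wild-type. Myocd stood at 538 and 453 CPM, and Smtn had the list's highest ratio at 553 and 300 CPM (log2 ratio 0.88). Myh11 stood at 4306 CPM in the knock-in and 3222 CPM in the wild-type.

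Markers of striated muscle were scarce in the SMC-like cells of both libraries. The 8 cardiomyocyte markers summed to 220 CPM in the knock-in and 230 CPM in the wild-type, of which Ryr2, a calcium channel gene that smooth muscle also expresses, made up 173 and 185 CPM. Actn2 is also on this list, and it was higher in the knock-in, as given above. Nppa, the atrial peptide gene, was at 0 in both, and Myh6, the cardiac myosin heavy chain gene, had 10 knock-in and 2 wild-type UMIs. The 8 skeletal muscle markers summed to 14.3 and 16.8 CPM, with Myh1 at 0 in both. The part of striated muscle RNA in the Tcap level was not tested.

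The clock lists stood apart between the libraries in both directions. Of 20 core clock genes, 15 were tested, 5 were at least 2-fold higher in the knock-in (all genes 1.09%) and 2 lower (all genes 0.931%). Higher were Per2, Per3, Nr1d1, Nr1d2 and Bhlhe41, all repressors in the loop. Nr1d1 had the most UMIs of these, at 166 CPM in the knock-in and 46.1 CPM in the wild-type. Lower were Arntl, at 2.20 CPM in the knock-in and 29.1 CPM in the wild-type, and Npas2, at 8.76 and 45.2 CPM. Per2, Per3 and Bhlhe41 reached 20 CPM in the knock-in alone, and Arntl and Npas2 in the wild-type alone, so these 5 passed the minimum through the library where they were high, and the count supports nothing by itself. With a minimum of 10 UMIs and no CPM minimum, 19 of the 20 were measured, 8 being higher (all genes 7.47%) and 2 lower (all genes 4.93%). Those 8 include Rorb (11 knock-in and 0 wild-type UMIs) and Fbxl21 (29 and 2), whose intervals include a log2 ratio of 0. Of 7 clock output factors, 5 were higher (all genes 1.09%) and 0 lower (all genes 0.931%), at a median log2 ratio of 1.34. Of those higher, Dbp, Tef, Hlf and Klf15 reached 20 CPM in the knock-in alone, so this count too supports nothing by itself. With a minimum of 10 UMIs and no CPM minimum, 5 were again higher (all genes 7.47%) and 0 lower (all genes 4.93%). Nfil3, the competitor of DBP, stood at 37.9 CPM in the knock-in and 74.8 CPM in the wild-type.

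A list of 14 muscle genes known to be under clock control, Per1 among them, had 6 tested, of which 2 were higher (all genes 1.09%), 1 was lower (all genes 0.931%) and 3 were between. Ppm1n, a protein phosphatase gene, stood at 72.3 CPM in the knock-in and 16.7 CPM in the wild-type, and Wee1, a cell cycle kinase gene, at 35.8 and 13.1 CPM. Both reached 20 CPM in the knock-in alone, so they passed the minimum through the library where they were high. Cdkn1a, encoding the cell cycle inhibitor p21, stood at 65.8 CPM in the knock-in and 195 CPM in the wild-type. None of these 3 had a ratio as far from even as that of Tcap.

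Within the knock-in library Tcap varied with Dbp from cell to cell. At 5000 UMIs per cell, the 1037 cells without a Dbp UMI had a mean of 1.60 Tcap UMIs (SD over cells 2.71), and 50.05% of them had a Tcap UMI. The mean was 2.46 in 706 cells with 1 Dbp UMI, 3 in 399 with 2, 3.51 in 203 with 3, 4.17 in 109 with 4 and 5.31 in 105 with 5 or more (SD 5.18), of which 88.6% had a Tcap UMI. The Tcap mean was higher at each further Dbp UMI, although the SD over cells was larger than each step. Cells of a library share their source, so this describes 1 pool.

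**Figure D4:**
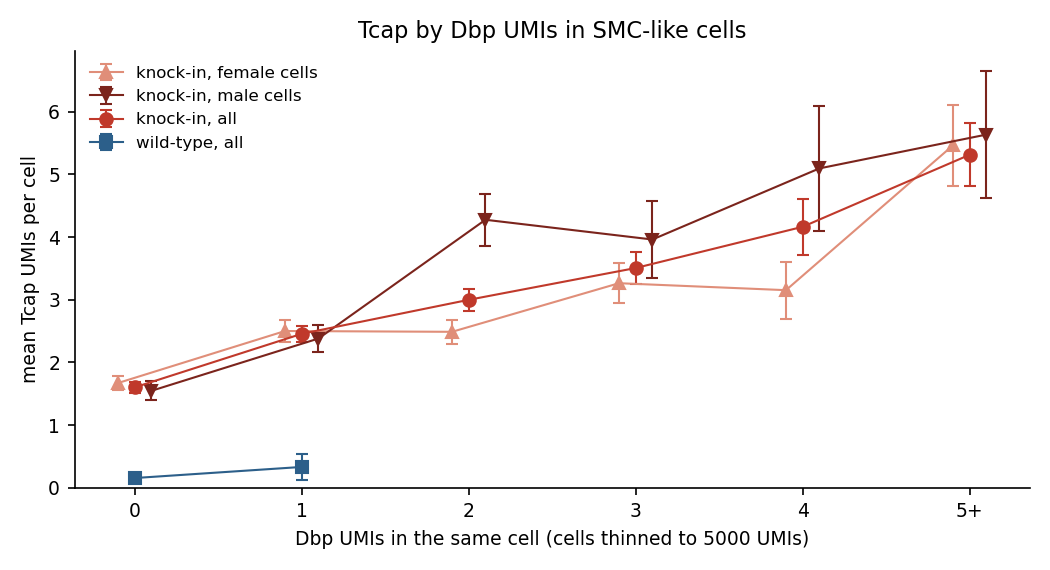
Mean Tcap UMIs per SMC-like cell, with the standard error over cells, by the number of Dbp UMIs in the same cell, after thinning to 5000 UMIs per cell, for all knock-in cells, female and male knock-in cells, and wild-type cells (bins of at least 10 cells). The knock-in mean climbs from 1.60 at 0 to 5.31 at 5 or more Dbp UMIs, and the wild-type mean is 0.156 at 0 and 0.333 at 1 Dbp UMI.

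The relation held within each sex and within the main cluster of the knock-in. Spearman's rho of Tcap with Dbp over 2559 knock-in cells was 0.29, and it was 0.32 in the Mylk4 cluster, 0.24 in female cells and 0.36 in male cells. Female knock-in cells went unevenly, at 2.502 Tcap UMIs with 1 Dbp UMI, 2.49 with 2, 3.26 with 3 and 3.15 with 4, and male cells at 2.38, 4.28, 3.96 and 5.10. In the Chrm2 cluster of the knock-in no such relation was seen. The mean was 2.65 in 130 cells with a Dbp UMI and 2.54 in 54 cells without, with a rho of 0.045 over 184 cells. In the wild-type the rho was 0.061 over 291 cells, of which only 16 had a Dbp UMI. The Tcap mean was 0.312 in those 16 and 0.156 in the 275 without. That is a log2 ratio of 0.999, against 0.93 in the knock-in, but the 16 cells held only 5 Tcap UMIs. Whether the relation differs between the libraries was not tested.

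Grouped by whether they held a Dbp UMI, cells still differed in Tcap between the libraries. Among cells without a Dbp UMI the Tcap mean was 1.60 in 1037 knock-in cells and 0.156 in 275 wild-type cells, a log2 ratio of 3.36 (2.92 to 3.83). Among cells with a Dbp UMI it was 3.06 in 1522 knock-in cells and 0.312 in 16 wild-type cells, a log2 ratio of 3.29 (2.07 to 4.92). A cell without a Dbp UMI at this depth can still hold the transcript, so the match is partial. Cells with a Dbp UMI were not matched for its number. Exactly 1 was held by 15 of the 16 wild-type cells but by 706 of the 1522 knock-in cells. At 1 Dbp UMI the Tcap mean was 2.46 in the knock-in and 0.333 in the wild-type. The 16 wild-type cells held only 5 Tcap UMIs. Whether Dbp accounts for the gap was not tested.

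Other clock transcripts varied less with Tcap. In knock-in SMC-like cells the rho was 0.12 for Hlf, 0.099 for Bhlhe41, 0.088 for Klf15, 0.081 for Nr1d1 and 0.063 for Tef. It was near 0 for Per1 (0.026), Per2 (0.0044) and Cry2 (-0.0052). On the other side were Clock at -0.089, Nfil3 at -0.067, Arntl at -0.061 and Npas2 at -0.052. The 19 knock-in cells with an Arntl UMI had a Tcap mean of 0.474, against 2.48 in the 2540 without. With UMIs of Clock, Arntl and Npas2 summed, the Tcap mean was 2.65 in 1952 cells with 0, 1.956 in 505 with 1, 1.55 in 84 with 2 and 1.43 in 14 with 3; the 3 cells with 4 had 5. Tcap was thus lower in knock-in cells with UMIs of the activators, apart from those 3. In sparse counts such weak correlations are only descriptions.

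Set against all genes, Dbp stood alone. Over 3682 genes with at least 0.2 UMIs per thinned cell on average, rho with Tcap across knock-in SMC-like cells had a median of 0.0041, the central 95% of genes ran from -0.069 to 0.071, and 45 genes reached 0.1 in size. Only Dbp passed 0.2. Among the next were Sost (0.17), which encodes the Wnt inhibitor sclerostin, Mt1 (0.16), a metallothionein gene, and Gstm1 (0.15), a glutathione transferase gene. In the Mylk4 cluster alone Mt1 (0.17) and Gstm1 (0.14) had similar values, while Sost (0.10) had a lower one.

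At the low end, Eln, the elastin gene, had the lowest rho of all at -0.16, and -0.22 in the Mylk4 cluster; Lox, encoding the lysyl oxidase that cross-links elastin and collagen, had -0.14 and -0.16. Both were also lower in the knock-in, Eln at 8725 CPM against 19248 CPM in the wild-type and Lox at 215 against 444 CPM. Sncg had -0.16 over all SMC-like cells but -0.011 inside the Mylk4 cluster, so its value did not hold within that cluster. Neither Eln nor Lox had a negative value of such size in the wild-type, where the rho over 291 cells was -0.0071 for Eln and 0.058 for Lox. Only 32 of those cells had a Tcap UMI, which limits any correlation there, and the value for Dbp was only 0.061. Whether the relation is absent in the wild-type was not tested.

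**Figure D5:**
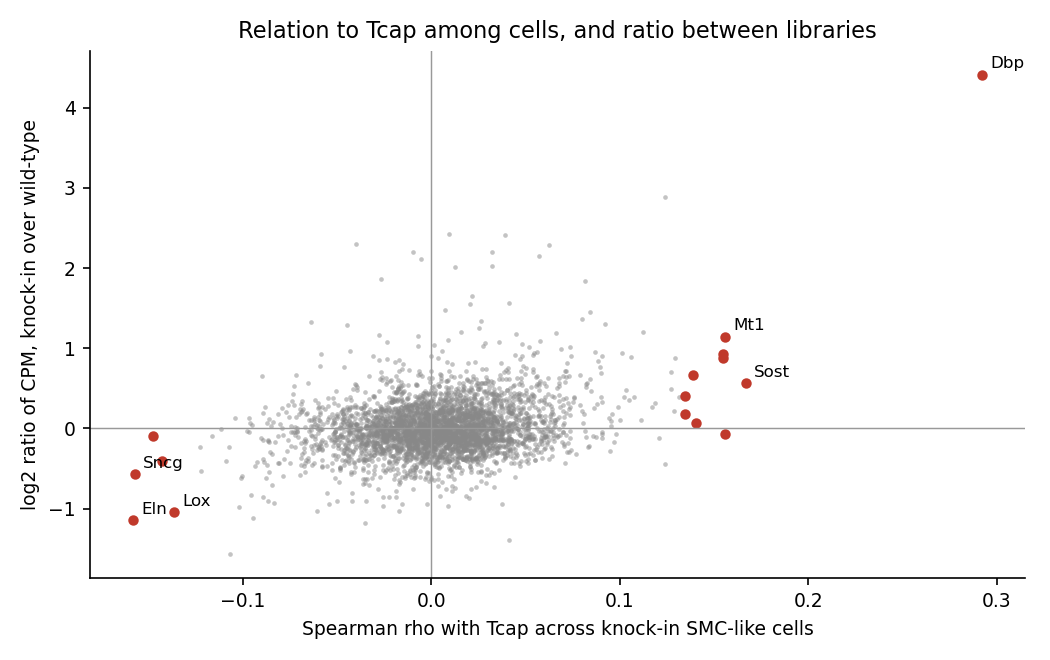
Each point is 1 of the genes measured across knock-in SMC-like cells, placed by its Spearman rho with Tcap over 2559 cells thinned to 5000 UMIs (horizontal axis) and by its log2 ratio of CPM of knock-in over wild-type (vertical axis). The 10 highest and 5 lowest rho values are coloured; Dbp lies apart at 0.29 and 4.41, and Eln has the lowest rho at -0.16.

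The genes whose levels across cell types were most like those of Tcap differed with the values used. Over 8 values per gene, 4 cell classes in each of 2 libraries, Pearson's r of log2(CPM + 1) with Tcap was 0.94 for Suclg2, a mitochondrial enzyme gene, 0.94 for Tafa1, a secreted protein gene, and 0.93 for Mmp17, a membrane metalloprotease gene. Tafa1 also had a high ratio between the libraries, at 65.9 CPM in knock-in and 14.4 CPM in wild-type SMC-like cells. With the 16 values of all clusters of enough cells, the nearest were Rbm24 (0.91), a muscle splicing factor gene, Mmp17 (0.91) and Plin4 (0.91), a lipid droplet protein gene, and Suclg2 had 0.68. Myocd had 0.91 over the 8 values and Dbp 0.23. These values share libraries and mainly contrast SMC-like cells with the rest.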

How the data were processed

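The authors deposited raw UMI counts per gene for every barcode. Per the file headers they came from Cell Ranger 7.1.0, a version that the submitters' processing notes also name. No coordinates are given because the build is not given in the sources used here. Neighbouring genes were named from RefSeq's table of GRCm38.p6.

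A barcode was kept as a cell from 1000 UMIs and 500 genes upward if mitochondrially encoded UMIs made up no more than 10%. Scrublet scored doublets, and the top 0.8% per 1000 cells were removed (330 knock-in and 109 wild-type cells). The libraries were clustered jointly and not integrated (scanpy 1.11.5, igraph 0.11.9; 2000 variable genes, 30 principal components, 15 neighbours, Leiden resolution 0.5). Tcap, the clock genes, Mgp, mitochondrial, ribosomal, hemoglobin and sex-linked genes were kept out of the variable genes. Clusters were named from marker lists by mean log2 gain over the lowest cluster, and left unnamed where a second list reached 0.7 of the best score, a limit raised from 0.65 after the clusters were seen.

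For each class of a library, UMIs were summed and given as CPM, with exact Poisson intervals, exact conditional binomial intervals for ratios and Clopper-Pearson intervals for shares. Shares and relations across cells used cells thinned to 5000 UMIs. Depth, 34014156 knock-in and 5638294 wild-type UMIs in SMC-like cells, sets the precision. Python 3.11.15, numpy 2.4.6, scipy 1.17.1, pandas 2.3.3 and matplotlib 3.10.9 were used, and the steps were tested on simulated data. Free RNA was taken from barcodes under 100 UMIs. Tcap, the gene lists and the rules were chosen with earlier results of these data known. Genes named beside Tcap were list members with at least 10 UMIs, the 10 highest and 5 lowest in correlation over cells, and those most like Tcap over classes and clusters. The mean thinned level needed for a correlation was 0.2 UMIs per cell. Alternatives covered cell filters, doublets, clustering, scaling, depth, sex, free RNA and thresholds.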

Additional observations from a re-analysis of the deposited data

How the results depend on the processing

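No paired analysis was possible because there is 1 library per genotype and the labels carry no replicate numbers. Of 170 recomputed values, 134 moved by less than the counting error or 1.5 times and 36 moved further. Counts, ranks and shares of cells, which make up many of these values, cannot change sign. Of the ratios and correlations, 0 changed sign. The log2 ratio of Tcap in SMC-like cells (3.96) was 3.54 in cells of 8000 to 20000 UMIs, 3.41 in female and 4.42 in male cells, 4.43 in the largest cluster, 4.34 without the 1% of cells with most Tcap and 4.30 without the wild-type cell of most Tcap, and lay between 3.76 and 4.001 otherwise. SMC-like over fibroblast-like cells of the knock-in (5.70) gave 6.30 at a naming limit of 0.65. At that limit the wild-type value (6.09) was 5.65. The fibroblast-like ratio (4.35) was 5.04 after subtraction of free RNA and 3.31 at that limit. The macrophage or monocyte-like ratio (1.28) was 3.83 without doublet removal; subtraction of free RNA gave it no value.

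The rank of Tcap (2) was 4 in female cells and 345 with a minimum of 10 UMIs and no CPM minimum, where 1149 genes were higher and 759 lower (main values 68 and 58). At 1.5-fold 238 were higher and 235 lower, 4 clock genes were lower (2 at 2-fold), 1 contractile gene was apart (0 at 2-fold) and 3 Z-disc genes were apart (1 at 2-fold). That last count was also 3 between 8000 and 20000 UMIs per cell, and 2 in male cells, with at least 3000 UMIs per cell and with libraries clustered separately. Clock genes higher in the knock-in numbered 10 to 13 under every alternative run.

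The rho of Tcap with Dbp (0.29) was 0.19 at 2000 UMIs, 0.39 at 10000 UMIs, 0.24 in female and 0.36 in male cells. The log2 ratio of Tcap in knock-in cells with over without a Dbp UMI (0.93) was 1.53 at 10000 UMIs, 0.76 in female and 1.20 in male cells. Cells with a Tcap UMI (63.2% in the knock-in, 11% in the wild-type) came to 44.5% and 5.41% at 2000 UMIs, 73.5% and 16.9% at 10000 UMIs, and 77.2% and 24.0% unthinned. Except where the construction shows it (fewer cells, another threshold or another depth), the cause was not tested. The settings without the wild-type cell of most Tcap, with the limit of 0.65, and with Tcap and clock genes allowed in clustering were chosen after seeing the data. The wild-type library limits precision, with 169 Tcap UMIs in 296 SMC-like cells.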

Other observations

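Of the genes beside Tcap in the gene order, Stard3, Ppp1r1b, Pgap3 and Erbb2 had lower ratios than Tcap, and Pnmt was too scarce for one. Stard3, the nearest protein-coding gene on one side, had 468 UMIs in knock-in and 50 in wild-type SMC-like cells (log2 ratio 0.63, 0.21 to 1.09), and Pnmt, the nearest on the other, had 13 and 0. Farther out, Ppp1r1b had 124 knock-in and 9 wild-type UMIs (log2 ratio 1.19, 0.22 to 2.35), Pgap3 had 89 and 14 (0.076, -0.75 to 1.00) and Erbb2 had 175 and 21 (0.47, -0.19 to 1.19). In the 28 knock-in cells of the cycling cluster Tcap had 9 UMIs, 6 of them in 1 cell, and in 110 wild-type cells of that cluster it had 0, where 3 counts would be 0.917 CPM.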
